A study of Homo sapiens with 16 samples.

Results

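The genes described here are 55 genes of DNA replication and mitosis, taken by symbol from a given list, out of 26485 gene symbols counted in each library. The replication members are 27 genes: MCM2, MCM3, MCM4, MCM5, MCM6, MCM7, MCM10, CDC6, CDT1, CDC45, GINS1, GINS2, ORC1, ORC6, PCNA, POLA1, POLE, POLD1, RFC3, RFC4, RRM1, RRM2, TYMS, CCNE1, CCNE2, E2F1 and MKI67. The mitosis members are 28 genes: CCNA2, CCNB1, CCNB2, CDK1, CDC20, CDC25B, CDC25C, BUB1, BUB1B, BUB3, AURKA, AURKB, PLK1, TTK, NEK2, KIF4A, KIF11, KIF20A, KIF23, CENPE, CENPF, DLGAP5, TPX2, TOP2A, BIRC5, UBE2C, PTTG1 and FOXM1. All 55 symbols were found in the files, and all 55 passed the filter on low counts in every comparison.

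Polyadenylated RNA was sequenced from the colon cancer lines SW480 and SW620, with 4 libraries in each of 4 groups. The groups were SW480 with dnLEF1, SW480 with GFP, SW620 with dnLEF1 and SW620 with GFP, all at passage 6. The labels give the dnLEF1 cells as Wnt low and the GFP cells as the mock control with high Wnt activity. As background, both lines carry a truncated APC and so keep beta-catenin active, and dnLEF1 is a LEF1 that lacks its beta-catenin binding part and sits on Wnt target genes without activating them. The labels say neither whether the cells of a group were 1 clone or a pool, nor whether the libraries of a group came from separate cultures, so that the p-values speak only of the scatter among these libraries, part of which may be technical.

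Replication starts when the origin recognition complex, CDC6 and CDT1 load the ring of MCM2 to MCM7 onto DNA, and CDC45 and GINS then turn that ring into the moving helicase that the polymerases follow. E2F factors drive many of these genes at the start of S phase. Mitosis genes are switched on later by the MuvB complex with MYBL2 and FOXM1, and the cyclin B kinase, Aurora and Polo kinases, the spindle checkpoint and the anaphase-promoting complex then drive chromosome segregation. In colon cancer cells, MYC and CCND1 are known Wnt targets that link the pathway to cell cycle entry.

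The promoters of 5 members are printed because they show the sequence classes into which the members fell. Capitals mark matches, on either strand, to an E2F motif (TTCCCGC or TTGGCGC), to CCAAT and to the cell cycle homology region, CHR (TTTGAA or TTCGAA). Each run is the 250 bases before the first listed RefSeq start of the gene, 5′ to 3′ on the gene's strand, on GRCh38.p14. PCNA and POLA1 held E2F matches, MKI67 and CDC20 held CHR matches, and CCNB1 held CCAAT alone.
PCNA, chr20:5126623-5126872, minus strand: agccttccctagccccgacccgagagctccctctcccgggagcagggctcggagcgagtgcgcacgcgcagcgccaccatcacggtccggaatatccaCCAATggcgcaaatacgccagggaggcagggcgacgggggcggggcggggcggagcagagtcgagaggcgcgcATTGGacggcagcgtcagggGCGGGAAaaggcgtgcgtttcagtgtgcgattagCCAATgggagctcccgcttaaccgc
POLA1, chrX:24693668-24693917, plus strand: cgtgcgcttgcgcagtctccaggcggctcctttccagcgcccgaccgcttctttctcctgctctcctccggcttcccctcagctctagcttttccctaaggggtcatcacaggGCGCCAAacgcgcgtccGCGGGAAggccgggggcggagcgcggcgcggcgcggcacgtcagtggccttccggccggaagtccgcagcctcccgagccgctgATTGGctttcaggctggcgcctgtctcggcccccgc
MKI67, chr10:128126424-128126673, minus strand: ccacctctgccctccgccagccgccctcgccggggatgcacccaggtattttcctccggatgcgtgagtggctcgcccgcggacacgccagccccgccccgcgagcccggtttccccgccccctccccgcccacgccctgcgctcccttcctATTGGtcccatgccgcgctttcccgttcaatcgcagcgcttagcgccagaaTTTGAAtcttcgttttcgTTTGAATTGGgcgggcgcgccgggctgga
CDC20, chr1:43358731-43358980, plus strand: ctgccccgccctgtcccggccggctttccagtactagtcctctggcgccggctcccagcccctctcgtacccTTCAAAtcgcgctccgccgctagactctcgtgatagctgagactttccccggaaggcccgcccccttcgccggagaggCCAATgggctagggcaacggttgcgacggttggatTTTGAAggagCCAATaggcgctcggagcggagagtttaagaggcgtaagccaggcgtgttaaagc
CCNB1, chr5:69166900-69167149, plus strand: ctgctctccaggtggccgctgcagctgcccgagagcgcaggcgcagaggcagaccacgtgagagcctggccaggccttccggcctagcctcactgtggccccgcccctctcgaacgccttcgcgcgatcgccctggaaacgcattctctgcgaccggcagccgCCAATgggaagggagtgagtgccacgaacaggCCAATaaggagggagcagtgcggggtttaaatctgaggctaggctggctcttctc
In the MKI67 promoter 1 CHR match and 1 CCAAT match share bases. Of the 55 members, 45 were matched to a RefSeq promoter, 24 of replication and 21 of mitosis. An E2F match was present in 14 of 24 replication promoters (58.3%) and in 3 of 21 mitosis promoters (14.3%), against 7.95% of the 27305 genes of the table. CHR matches ran the other way, with 3 of 24 replication promoters (12.5%) and 10 of 21 mitosis promoters (47.6%), against 14.6% of the table. CCAAT matches were in 17 of 24 (70.8%) and 17 of 21 (81.0%), against 33.0%. No promoter of the 45 held CTTTGAT or CTTTGAA, the TCF/LEF motif searched, which 6.03% of all promoters held. These letter matches are descriptions, and none bears on whether a factor was bound.

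Counts assigned to genes ran from 17181204 to 26153506 per library, and levels below are CPM, that is counts relative to library size, scaled over all 16 libraries. LEF1, from which the construct is made, had 273, 271, 269 and 173 CPM in SW480 dnLEF1 libraries 1 to 4, against 52.6, 52.3, 48.8 and 52.9 CPM in SW480 GFP libraries, a log2 fold change of 2.26 ± 0.12 (edgeR adjusted p = 2.37e-09). The SW620 libraries had 25.6, 20.1, 23.2 and 24.2 CPM in dnLEF1 libraries, against 3.63, 3.92, 2.82 and 3.08 CPM in GFP libraries, a log2 fold change of 2.79 ± 0.12 (edgeR adjusted p = 7.94e-09). The summed level of 10 colon epithelium markers was 7090 to 8512 CPM in SW480 dnLEF1 libraries and 10726 to 12492 CPM in SW480 GFP libraries, and its part in the member differences was not tested. CDX1 and CDH17 had no count in SW480 dnLEF1, and CDX1 had none in either SW620 group. Fibroblast markers summed to at most 37.9 CPM, endothelium markers to at most 3.79 CPM and leukocyte markers to at most 5.97 CPM in any library. In SW620 GFP replicate 3, alignments to more than 1 place, which are outside the gene counts, made up 39.4% of the total counted. In the other libraries they made up 7.61% to 9.46%.

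In SW480 with dnLEF1 the replication members moved in both directions and by less than 2-fold. The changes that passed the test were centred on the polymerase alpha gene POLA1, the helicase gene GINS1 and the proliferation marker MKI67, which fell, and on CCNE1, which rose. Of 27 replication members, 2 rose and 10 fell, while 15 missed the threshold (edgeR adjusted p below 0.05), with a median log2 fold change of -0.12. Over all 14426 genes tested, 48.5% passed, 24.2% higher and 24.4% lower, with a median of -0.0013, so that the share of replication members called lay near that of genes at large. None of the 55 members reached 2-fold. Of the 14426 genes tested 1570 both passed the test and reached it, but these genes were not matched to the members in level. In bulk RNA, fewer cycling cells and less RNA per cycling cell cannot be told apart. Without GFP replicate 1, 4 replication members rose, in place of 2.

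MKI67 encodes Ki-67, which coats mitotic chromosomes and is used to mark cycling cells (hg38 chromosome 10, 128096659 to 128126423, minus strand). It had 415, 532, 519 and 335 CPM in SW480 dnLEF1 libraries 1 to 4, against 800.3, 665, 628 and 661 CPM in GFP libraries. Every dnLEF1 library was below every GFP library, and dnLEF1 replicates 1 and 4 were the lowest. The log2 fold change was -0.61 ± 0.12, which is 1.53-fold lower in dnLEF1 (edgeR adjusted p = 0.00104). Its promoter held CHR and CCAAT matches and no E2F match.

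POLA1 encodes the catalytic subunit of polymerase alpha, which with primase starts each DNA strand (hg38 chromosome X, 24693873 to 24996986, plus strand). Its level was 102, 104, 100.03 and 77.8 CPM in dnLEF1 libraries and 154, 143, 138 and 132 CPM in GFP libraries of SW480. The groups did not overlap, and dnLEF1 replicate 4 stood apart as the lowest. It fell by 0.56 ± 0.09 on the log2 scale (edgeR adjusted p = 1.29e-04). GINS1, a subunit of the GINS complex in the moving helicase, had 56.4, 52.4, 57.4 and 54.2 CPM in dnLEF1 libraries, against 85.7, 74.7, 75.2 and 72.8 CPM in GFP libraries. Again no dnLEF1 library reached the GFP range, with a log2 fold change of -0.48 ± 0.07 (edgeR adjusted p = 6.09e-05). GINS2, another subunit of the same complex, had a log2 fold change of 0.19 ± 0.10 and did not pass the test.

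CCNE1 encodes cyclin E1, the partner of CDK2 at the entry to S phase (hg38 chromosome 19, 29811991 to 29824312, plus strand). It had 24.9, 19.2, 19.4 and 19.96 CPM in SW480 dnLEF1 libraries, against 15.2, 13.3, 14.7 and 13.4 CPM in GFP libraries. The lowest dnLEF1 library was above the highest GFP library, and dnLEF1 replicate 1 was the highest of all. The gene rose by a log2 fold change of 0.56 ± 0.10, or 1.48-fold (edgeR adjusted p = 3.90e-04). Its paralogue CCNE2, cyclin E2, fell, with a log2 fold change of -0.27 ± 0.09 (edgeR adjusted p = 0.0280). CCNE2 shares 37.0% of its exon bases with INTS8. The strand setting of the counting is not given in the sources used here, so how reads over the shared bases were counted, or whether they were left out, is not known. TYMS, thymidylate synthase, which makes the thymine nucleotide, was the other riser at 0.32 ± 0.09 (edgeR adjusted p = 0.00764), and it shares 39.9% of its exon bases with ENOSF1.

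Among the MCM genes, MCM3 and MCM6 of the helicase ring fell, as did MCM10, which helps start the helicase, with log2 fold changes between -0.40 and -0.22. MCM2, of the same ring, had 398, 327, 314 and 295 CPM in dnLEF1 libraries, against 403, 404, 386 and 357 CPM in GFP libraries. The groups overlapped through dnLEF1 replicate 1, and the log2 fold change of -0.21 ± 0.09 did not pass the test (edgeR adjusted p = 0.0583), though it did in 6 of 16 alternative fits, among them that without dnLEF1 replicate 1. MCM7 had 1058, 888, 843 and 872 CPM in dnLEF1 libraries, against 1039, 969, 958 and 888 CPM in GFP libraries of SW480. These overlapped, and the approximate 95% interval of the log2 fold change ran from -0.23 to 0.09. MCM4 and MCM5 did not pass the test either, at -0.12 and 0.06.

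The loading factor CDC6 had 174, 151, 143 and 144 CPM in SW480 dnLEF1 libraries and 187, 169, 165 and 146 CPM in GFP libraries, and the transcription factor E2F1 had 139, 117, 119 and 131 CPM in dnLEF1 libraries and 119.8, 119, 115 and 109.7 CPM in GFP libraries. Both pairs of groups overlapped. The log2 fold change was -0.12 ± 0.09 for CDC6, with a 95% interval of -0.29 to 0.05, and 0.13 ± 0.07 for E2F1, with an interval of -0.01 to 0.27, and neither passed the test. PCNA, the sliding clamp of the polymerases, had 471, 379.8, 361 and 407 CPM in dnLEF1 libraries, against 477, 454, 464 and 425 CPM in GFP libraries. Its groups overlapped through dnLEF1 replicate 1, and its log2 fold change of -0.17 ± 0.08 did not pass the test (edgeR adjusted p = 0.114). Without dnLEF1 replicate 1, and with an offset for exon length, PCNA passed, at -0.36 in the fit with the offset. RRM1, the large subunit of ribonucleotide reductase, fell by 0.31 on the log2 scale, whereas the small subunit RRM2 had 0.14 ± 0.09 and did not pass. POLE, of the leading-strand polymerase, and RFC4, of the clamp loader, fell by 0.27 and 0.25. The members left, CDT1, CDC45, ORC1, ORC6, POLD1 and RFC3, lay between -0.15 and 0.18 and did not pass.

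The mitosis members of SW480 were also split. Of 28 genes, 5 rose and 8 fell, 15 missed the threshold and the median log2 fold change was -0.11. The risers were CDC20, AURKA, PTTG1, BIRC5 and CCNB1. Those that fell were the kinetochore gene CENPF, the checkpoint genes TTK, BUB1 and BUB3, the kinase CDK1, the kinesins KIF20A and KIF4A, and DLGAP5, a spindle protein. The 13 calls stand against the same 48.5% of all genes tested. The count of falls was the less stable one. It was 5 without GFP replicate 1, 4 without GFP replicate 2 and 4 without dnLEF1 replicate 4, and without GFP replicate 1 the count of rises was 8.

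CDC20 activates the anaphase-promoting complex at the onset of anaphase (hg38 chromosome 1, 43358981 to 43363203, plus strand). It had 312, 283, 264 and 279 CPM in SW480 dnLEF1 libraries, against 226, 219, 213 and 188 CPM in GFP libraries. Every dnLEF1 library was higher than every GFP library, and the log2 fold change was 0.43 ± 0.07, or 1.35-fold (edgeR adjusted p = 2.94e-04). With the offset for exon length it was 0.27, still past the test. AURKA, the Aurora kinase of spindle poles, had 255, 262, 255 and 257 CPM in dnLEF1 libraries and 212, 202, 204 and 180.3 CPM in GFP libraries. The dnLEF1 values lay within a narrow range above all GFP values, at a log2 fold change of 0.37 ± 0.06 (edgeR adjusted p = 3.11e-04). Its partner TPX2, which holds AURKA on the spindle, had 0.06 ± 0.06 and did not pass the test.

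PTTG1 encodes securin, the inhibitor of separase that CDC20 targets for destruction. Its level was 171, 174, 167 and 211 CPM in dnLEF1 libraries, against 140.0, 149, 154 and 125 CPM in GFP libraries, with dnLEF1 replicate 4 the highest and no overlap. It rose by 0.35 ± 0.09 on the log2 scale (edgeR adjusted p = 0.00460), or by 0.19 with the offset for exon length. PTTG1 has near-identical copies in the genome, so that part of its reads may have been left out as multiply aligned. BIRC5, survivin of the chromosomal passenger complex, had 197, 180.2, 177 and 197 CPM in dnLEF1 libraries and 157, 151, 157 and 135 CPM in GFP libraries, a log2 fold change of 0.33 ± 0.07 (edgeR adjusted p = 0.00164). Here too no library of 1 group entered the range of the other, and the 24 nearest measured genes around BIRC5 had a median log2 fold change of 0.29. AURKB, the kinase of the same complex, had 0.20 ± 0.08 (edgeR adjusted p = 0.0588) and did not pass.

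The cyclin B kinase moved in both directions in SW480. CDK1, its catalytic subunit, had 202, 178, 172 and 169 CPM in dnLEF1 libraries, against 234, 211, 209 and 194 CPM in GFP libraries. The groups overlapped through dnLEF1 replicate 1, and the log2 fold change was -0.23 ± 0.08 (edgeR adjusted p = 0.0223); the call was lost without GFP replicate 1 and without any of dnLEF1 replicates 2, 3 and 4. CCNB1, the cyclin B1 subunit, had 319.9, 326, 317 and 338 CPM in dnLEF1 libraries and 295, 301, 285 and 269 CPM in GFP libraries. Its groups did not overlap, at 0.18 ± 0.06 (edgeR adjusted p = 0.0263), but the call was lost without GFP replicate 3, GFP replicate 4 or dnLEF1 replicate 4, and with the offset for exon length, where the value was 0.05. CCNB2 had -0.02 ± 0.06 and did not pass the test. CDC25B, a phosphatase that activates CDK1, had 203, 199.6, 207 and 217 CPM in dnLEF1 libraries and 208, 233, 228 and 244 CPM in GFP libraries, which overlapped, and its log2 fold change of -0.14 ± 0.07 did not pass.

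BUB1, a kinase of the spindle checkpoint, had 169.9, 187, 176 and 159 CPM in SW480 dnLEF1 libraries, against 206, 199, 191 and 196 CPM in GFP libraries. All dnLEF1 values were below all GFP values, with a log2 fold change of -0.19 ± 0.06 (edgeR adjusted p = 0.0241); the call was lost without GFP replicate 1, GFP replicate 2 or dnLEF1 replicate 4. Its checkpoint partners BUB3 and TTK fell by 0.21 and 0.23. BUB1B had -0.14 and did not pass the test, although its groups did not overlap. TOP2A, the topoisomerase that untangles sister chromatids, had 865, 911, 942 and 706 CPM in dnLEF1 libraries, against 1129, 939, 879.5 and 956 CPM in GFP libraries, which overlapped. It had a log2 fold change of -0.19 ± 0.10, which did not pass. PLK1, Polo-like kinase 1, had 138, 136, 127 and 125 CPM in dnLEF1 libraries and 129.9, 116, 120.2 and 109.8 CPM in GFP libraries, which overlapped through GFP replicate 1, and its log2 fold change of 0.15 ± 0.07 did not pass. FOXM1, the activator of the mitosis genes, had 299, 306, 310.3 and 286 CPM in dnLEF1 libraries and 293, 308, 308 and 312 CPM in GFP libraries. These ranges lay largely over each other, and the log2 fold change of -0.02 ± 0.06, with a 95% interval of -0.13 to 0.09, did not pass. FOXM1 shares 15.9% of its exon bases with ITFG2, on the opposite strand, so that the limit given for CCNE2 holds for it too. The other 7, CCNA2, CDC25C, NEK2, KIF11, KIF23, CENPE and UBE2C, lay between -0.20 and 0.18 and did not pass either.

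**Figure D1:**
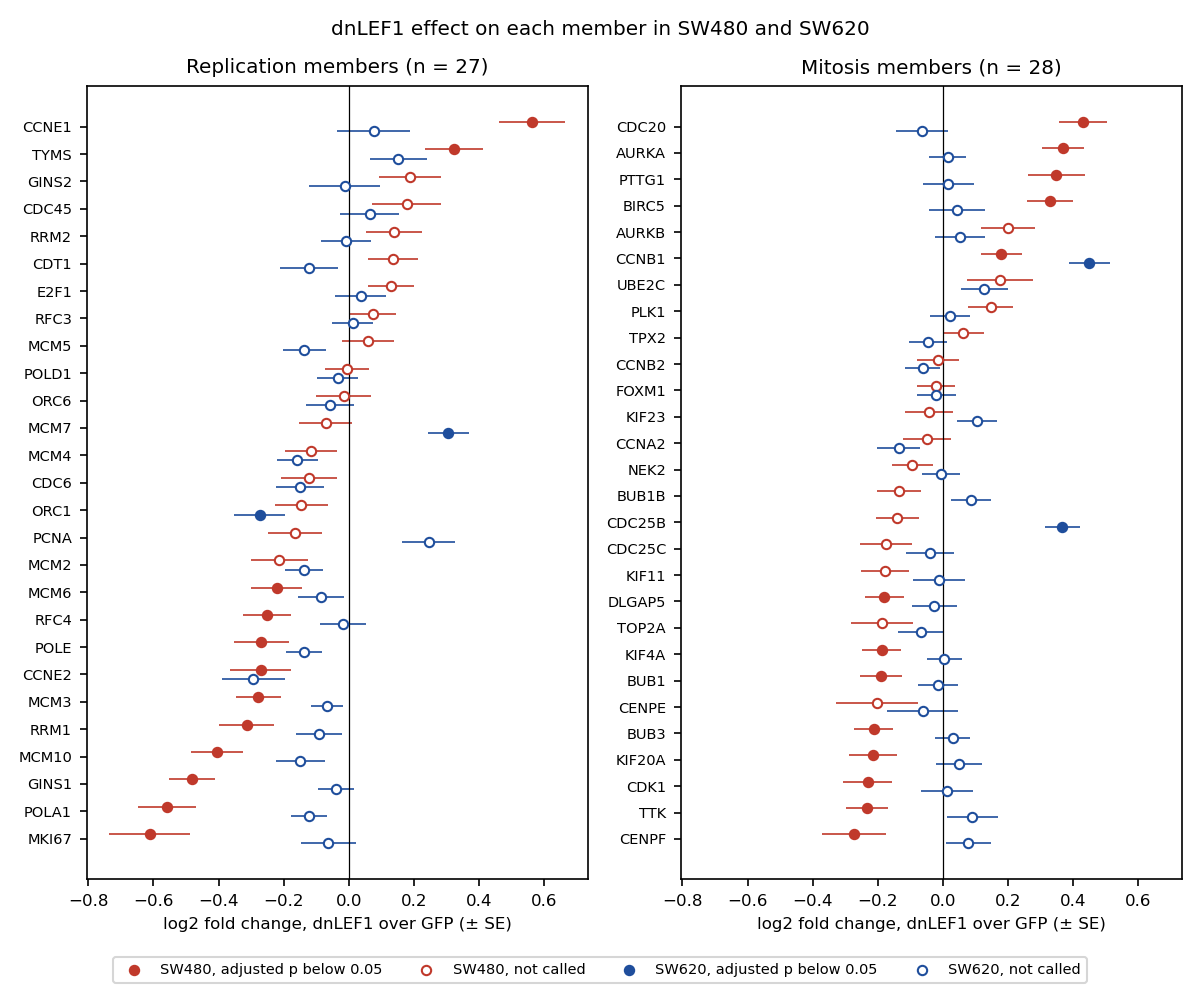
Log2 fold change of dnLEF1 over GFP (x axis, bars are standard errors) for each replication member (left panel) and mitosis member (right panel), in SW480 (red) and SW620 (blue); filled points passed the test at an edgeR adjusted p below 0.05. SW480 values spread from -0.61 for MKI67 to 0.56 for CCNE1, and most SW620 values lie near 0, with MCM7, CCNB1 and CDC25B filled on the right.

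Other genes of the same pathways, from lists set beside the members, gave counts of the same kind in SW480. The share called was 42% for other replication genes, 38.2% for other mitosis genes and 42.9% for E2F and MuvB regulators. Over all genes tested it was 48.5%, so that none of these lists was called more often than genes at large. Of 50 other replication genes, 6 rose and 15 fell, with a median log2 fold change of -0.12. Among those called with at least 5 CPM the largest rise was in POLD4, a small subunit of polymerase delta, at 0.91 ± 0.13 (edgeR adjusted p = 4.85e-05), and the largest fall in CDC7, the kinase that fires origins, at -0.73 ± 0.07 (edgeR adjusted p = 8.61e-07). DNA2, a nuclease of lagging-strand processing, fell by 0.57. Of 76 other mitosis genes, 12 rose and 17 fell, with a median of -0.06. TACC3 of the spindle rose by 0.43, and KNL1 of the kinetochore and ASPM of spindle poles fell by 0.65 and 0.56. Of 21 E2F and MuvB regulators, 1 rose and 8 fell. The riser was E2F4 at 0.31, and the repressor E2F7 fell by 0.54.

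Several regulators of entry to the cycle changed by more than any member. Of 14 CDK inhibitors, D cyclins and related regulators in SW480, 1 rose and 5 fell, 3 of them at least 2-fold. The share called, 42.9%, was no higher than the 48.5% of all genes tested. The median log2 fold change of the list was 0.04, with 8 genes higher and 6 lower. Those named here are called genes with the largest changes. CCND1, cyclin D1 and a Wnt target, had 1242 ± 77.3 CPM in dnLEF1 libraries and 2593 ± 159 CPM in GFP libraries (SD, n = 4 each), and fell by 1.06 ± 0.07 on the log2 scale (edgeR adjusted p = 2.84e-08). CCND2, cyclin D2, fell 13.0-fold, and CDK6, the kinase they bind, fell 1.71-fold. The inhibitor CDKN1C, p57, fell 4.02-fold, and CDKN1A, p21, rose 1.19-fold. 

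In SW620, 3 of the 55 members rose with dnLEF1 and 1 fell. Of 27 replication members, MCM7 rose, ORC1 fell and 25 missed the threshold, and the median log2 fold change was -0.06. Of 28 mitosis members, CCNB1 and CDC25B rose and 26 did not pass, with a median of 0.01. Over all 13336 genes tested in SW620, 8.46% passed, 6.03% higher and 2.43% lower, and so few members were called that no share can be read from them. None of the 55 reached 2-fold. Of the 13336 genes tested only 187 both passed the test and reached it, so that none among 55 members lies near the share of genes at large. No mitosis member fell at an edgeR adjusted p below 0.05, and none did in DESeq2 or limma voom; at an unadjusted p below 0.05 the count was also 0.

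MCM7 (hg38 chromosome 7, 100092233 to 100101940, minus strand) had 829, 809, 747 and 755 CPM in SW620 dnLEF1 libraries 1 to 4, against 699.8, 635, 583 and 621 CPM in GFP libraries. The lowest dnLEF1 library was above the highest GFP library. The log2 fold change was 0.31 ± 0.06, or 1.24-fold (edgeR adjusted p = 0.00612). The other 5 genes of the helicase ring, MCM2 to MCM6, had values between -0.16 and -0.07 and did not pass the test. MCM2 had 352, 360.4, 339 and 335 CPM in dnLEF1 libraries and 414, 386, 365 and 359.7 CPM in GFP libraries, which just met, with a 95% interval of -0.25 to -0.03.

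CCNB1 (hg38 chromosome 5, 69167135 to 69178245, plus strand) had 504, 507, 487 and 437 CPM in SW620 dnLEF1 libraries, against 385, 349, 354 and 328 CPM in GFP libraries. No GFP library came near the dnLEF1 range, and the log2 fold change was 0.45 ± 0.06, or 1.37-fold (edgeR adjusted p = 3.78e-04). CDC25B (hg38 chromosome 20, 3786772 to 3806121, plus strand) had 429, 478, 456 and 472 CPM in dnLEF1 libraries and 345, 359, 354 and 365 CPM in GFP libraries. It rose in the same way, at 0.37 ± 0.05 (edgeR adjusted p = 5.12e-04). The kinase they act on, CDK1, had 383, 318, 329.7 and 279 CPM in dnLEF1 libraries and 346, 323, 328 and 301 CPM in GFP libraries. These ranges lay over each other, with a 95% interval of -0.15 to 0.17 for the log2 fold change.

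PCNA had 833, 724, 671 and 638 CPM in SW620 dnLEF1 libraries, against 677, 593, 589.8 and 557 CPM in GFP libraries. Only GFP replicate 1 lay within the dnLEF1 range, and the log2 fold change of 0.25 ± 0.08 did not pass the test (edgeR adjusted p = 0.0865). It passed without that library and with no filter on low counts. ORC1, the large ATP-binding subunit of the origin recognition complex, had 62.3, 51.5, 55.1 and 52.2 CPM in dnLEF1 libraries and 74.9, 66.5, 66.0 and 59.9 CPM in GFP libraries. These overlapped through dnLEF1 replicate 1, and ORC1 fell by 0.27 ± 0.08 (edgeR adjusted p = 0.0446). That call was lost without any of GFP replicates 1, 2 and 3 or dnLEF1 replicates 2, 3 and 4, with adjusted p up to 0.135. Without GFP replicate 4 a further replication member fell.

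Of the members called in SW480, CCNB1 alone passed the test in SW620. MKI67 had 594, 478, 669 and 580.0 CPM in dnLEF1 libraries, against 599, 629.9, 626 and 569 CPM in GFP libraries, a log2 fold change of -0.06 ± 0.08. POLA1 had -0.12 ± 0.06, CCNE1 0.08 ± 0.11, CDC20 -0.06 ± 0.08 and AURKA 0.02 ± 0.06, and none passed the test. CDC6, E2F1, BUB1, TOP2A, PLK1 and FOXM1 did not pass either, with values between -0.15 and 0.04.

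**Figure D2:**
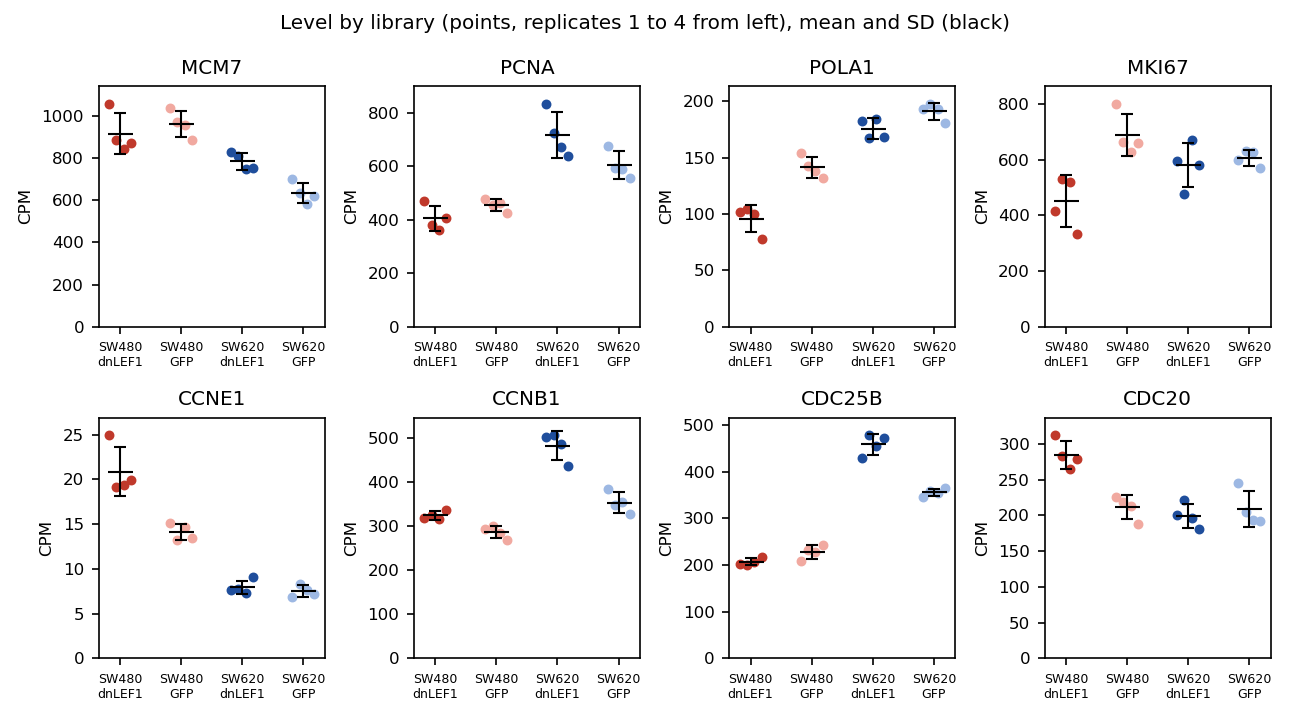
CPM of 8 members (y axis, from 0) in each library of the 4 groups; points are replicates 1 to 4 from left, the black bar is the mean and its whiskers the SD. MCM7, CCNB1 and CDC25B were higher in every SW620 dnLEF1 library than in any SW620 GFP library, POLA1 and MKI67 were lower in every SW480 dnLEF1 library than in any SW480 GFP library, and CCNE1 and CDC20 were higher there.

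The 3 members that rose in SW620, MCM7, CCNB1 and CDC25B, and PCNA, which did not pass the test, lay among genes that were also higher with dnLEF1. For each member the 12 nearest measured genes on each side, 24 in all, were taken on hg38. All 24 neighbours of MCM7 on chromosome 7 at 100.1 Mb were higher in dnLEF1, with a median log2 fold change of 0.39. The same held for CCNB1 on chromosome 5 at 69.2 Mb, with a median of 0.45, for PCNA on chromosome 20 at 5.11 Mb, with 0.37, and for CDC25B at 3.79 Mb of that chromosome, with 0.31. PCNA and CDC25B lie near each other, and their sets of neighbours may share genes. The other 51 members had neighbour medians between -0.07 and 0.09 and at most 19 neighbours higher, and over all genes the range from the 5th to the 95th percentile was -0.07 to 0.16. Set against its neighbours, CCNB1 differed by 0.0048, MCM7 by -0.08, PCNA by -0.13 and CDC25B by 0.06 on the log2 scale. ORC1 had neighbours with a median of -0.01. The part of chromosome position in these differences was not tested, and the groups compared cannot separate it from dnLEF1.

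Other pathway genes that rose in SW620 had the same setting. Of 50 other replication genes, 5 rose, and of 76 other mitosis genes 1 rose, against 6.03% of all genes tested. On the lower side none passed by edgeR, against 2.43% of all genes, and 5 and 3 were lower at an unadjusted p below 0.05. Counts this small allow no share to be read. DBF4, the activating subunit of CDC7 kinase, rose by 0.49 ± 0.08 (edgeR adjusted p = 0.00132) on chromosome 7 at 87.9 Mb, where 22 of 24 neighbours were higher. ORC5 and RFC2 on the same chromosome rose by 0.42 and 0.28, with 24 of 24 and 23 of 24 neighbours higher. CENPK of the kinetochore, on chromosome 5, rose by 0.42, with 23 of 24 neighbours higher. MCM8, a relative of the MCM ring, on chromosome 20 at 5.95 Mb, rose by 0.31 with 24 of 24 higher. These 5 genes thus lay on chromosomes 5, 7 and 20, as did MCM7, CCNB1, CDC25B and PCNA. Of 21 E2F and MuvB regulators in SW620, 2 fell, the E2F partner TFDP1 at -0.43 ± 0.08 and E2F7 at -0.27 ± 0.07. On chromosome 13, 1 of the 17 neighbours used for TFDP1 was higher, with a median of -0.18, and for E2F7 on chromosome 12 it was 10 of 24, with a median of -0.02. Of 13 CDK inhibitors and D cyclins tested in SW620, 0 passed edgeR in either direction, with 3 higher and 2 lower at an unadjusted p below 0.05.

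In SW480 most of the large changes were not matched by the neighbourhood. The 24 neighbours of CCNE1 had a median of -0.00, those of AURKA -0.01, those of MKI67 -0.07 and those of POLA1 -0.13, against 5th and 95th percentiles of -0.25 and 0.25 over all genes. CCNB1, which was higher in dnLEF1 in both lines, had neighbours that were lower in SW480, with a median of -0.21 and 3 of 24 higher. KIF20A and CDC25C, which lie close together on chromosome 5, had neighbour medians of -0.46 and -0.45, and their own values were -0.21 and -0.18. Several other mitosis members that fell in SW480 also lay among genes with lower medians. These medians were -0.27 for CDK1, -0.21 for BUB1, -0.23 for BUB3, -0.24 for KIF4A and -0.29 for DLGAP5. The members' own values were -0.23, -0.19, -0.21, -0.19 and -0.18. For CENPF and TTK, which fell too, the neighbour medians were -0.05 and 0.13. The part of chromosome position in the SW480 changes was not tested.

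**Figure D3:**
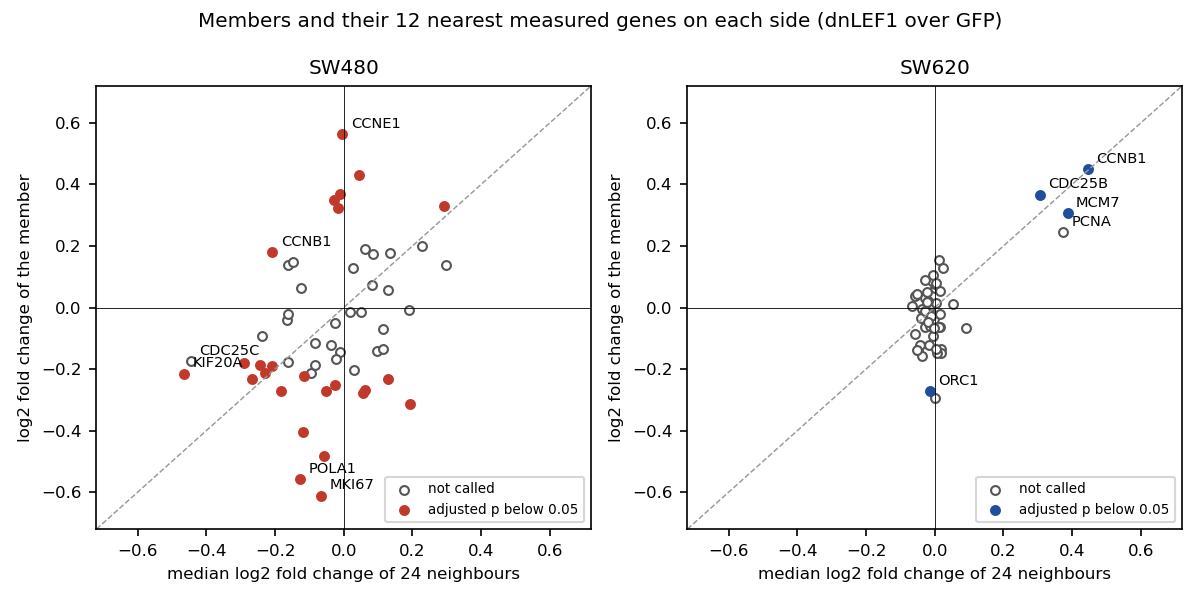
Log2 fold change of each of the 55 members (y axis) against the median of its 24 nearest measured genes (x axis), dnLEF1 over GFP, in SW480 (left) and SW620 (right); filled points passed the test and the dashed line marks equal values. In SW620 MCM7, PCNA, CCNB1 and CDC25B stand apart from the other 51 members with neighbour medians of 0.31 to 0.45.

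Whether dnLEF1 acted unequally in the 2 lines was tested directly, as the SW620 effect minus the SW480 effect over all 16 libraries. It shares its libraries with the comparisons above. Mean LEF1 RNA was 246 CPM in SW480 dnLEF1 and 23.3 CPM in SW620 dnLEF1, so that line and LEF1 level cannot be told apart here. Over all 14926 genes tested 28.5% passed, 16.2% positive and 12.3% negative. Of 27 replication members 5 were positive and 1 was negative, and of 28 mitosis members 5 were positive and 2 were negative, with medians of -0.02 and 0.14. A positive value means a higher dnLEF1 effect in SW620 than in SW480. MKI67 had 0.55 ± 0.17 (edgeR adjusted p = 0.0176), made up of a SW620 effect of -0.06 and a SW480 effect of -0.61. GINS1 and POLA1 had 0.45 ± 0.08 and 0.44 ± 0.11 and likewise rested on their falls in SW480. PCNA, MCM7 and CCNB1 had 0.41 ± 0.12, 0.38 ± 0.10 and 0.27 ± 0.09, and with CDC25B they are the 4 members whose neighbours were all higher in SW620.

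CDC25B had the smallest adjusted p of the 55 in this test, at 0.51 ± 0.08 (edgeR adjusted p = 5.91e-05), with 0.37 in SW620 and -0.14 in SW480. TTK and BUB3 of the checkpoint had 0.33 ± 0.10 and 0.25 ± 0.07. CENPF, a kinetochore protein, had 243, 312, 329 and 257 CPM in SW480 dnLEF1 libraries, against 383, 312, 319 and 367 CPM in SW480 GFP libraries, and 438, 386, 478 and 448 CPM in SW620 dnLEF1 libraries, against 388, 436, 436 and 398 CPM in SW620 GFP libraries. Its groups overlapped in both lines, and its value of 0.35 ± 0.13 (edgeR adjusted p = 0.0488) was called in 8 of 23 alternative fits. The negative ones were CCNE1, CDC20 and AURKA, at -0.48 ± 0.15, -0.49 ± 0.12 and -0.35 ± 0.08, all of which rose in SW480. Without SW480 dnLEF1 replicate 1, 8 replication members were positive. Without SW620 GFP replicate 4, 2 mitosis members were positive and 4 negative, CCNB1 no longer passed, and without SW620 dnLEF1 replicate 3, 3 mitosis members were positive. CCNB1 also lost its call without SW480 GFP replicate 2.

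More members passed the test between the lines themselves, SW620 GFP against SW480 GFP, than with dnLEF1 in either line. Of 27 replication members 15 were higher and 9 lower in SW620, and of 28 mitosis members 9 were higher and 15 lower (edgeR adjusted p below 0.05), with medians of 0.17 and -0.21. Over all 14350 genes tested 78% passed, 37.7% higher and 40.3% lower, so that a call here sets no member apart. ORC6, a subunit of the origin recognition complex, had 92.8, 83.3, 82.2 and 82.7 CPM in SW620 GFP libraries, against 47.2, 39.2, 38.2 and 38.9 CPM in SW480 GFP libraries, 2.07-fold higher. RRM2 had 347, 340.4, 351 and 300.2 CPM in SW620 GFP libraries and 769, 654, 664 and 609 CPM in SW480 GFP libraries, 2.02-fold lower. Neither pair of groups overlapped. MCM3 and POLE were higher in SW620, by 0.82 and 0.74 on the log2 scale, and CCNE1 and E2F1 were lower, at -0.92 and -0.69.

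Among the mitosis members, some kinases and phosphatases of the G2 to M switch were higher and others lower in SW620 GFP. CDC25B had 0.63 ± 0.06, CDK1 0.61 ± 0.07 and PLK1 0.55 ± 0.06, all higher in SW620 GFP, whereas CDC25C, another phosphatase of CDK1, had -1.05 ± 0.08, and CCNA2, cyclin A2, had -0.68 ± 0.07. AURKA and BUB1 were lower at -0.52 and -0.54, and FOXM1 and TOP2A at -0.30 and -0.24. MCM7 was lower in SW620 GFP, at -0.61 ± 0.07 (edgeR adjusted p = 1.09e-06), and 1 of its 24 neighbours was higher there, with a median of -1.05. Neighbour medians were 0.29 for CDC25B, 0.80 for CDK1 and 0.32 for PLK1. They were -0.26 for CDC25C, -0.44 for CCNA2, -0.42 for AURKA, -0.63 for BUB1 and -0.34 for TOP2A. For FOXM1 and MKI67 they went the other way, at 0.23 and 0.26. The part of chromosome position in the line differences was not tested. MKI67 was lower at -0.19 ± 0.07, a call lost in 1 fit of all 16 libraries and without SW480 GFP replicate 1, SW620 GFP replicate 1 or SW620 GFP replicate 4. MCM2 and CDC20 did not pass the test, at -0.03 and -0.03.

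Per kilobase of exon, PCNA was the most abundant of the 55 transcripts in all 4 groups. Its mean level was 289 CPM per kb in SW480 dnLEF1, 324 in SW480 GFP, 511 in SW620 dnLEF1 and 431 in SW620 GFP. Next in SW480 dnLEF1 came UBE2C, the ubiquitin-conjugating enzyme of the anaphase-promoting complex, at 210.4 CPM per kb, and MCM7 at 185. In SW480 GFP the same genes had 187 and 194 CPM per kb, in the other order. In SW620 dnLEF1, CCNB1 at 199 CPM per kb came after PCNA, and in SW620 GFP, MCM3 at 160.0 did. CCNE1 was the lowest of the 55 in both SW620 groups and in SW480 GFP, at 3.22 CPM per kb in SW620 dnLEF1, 3.06 in SW620 GFP and 5.75 in SW480 GFP. POLE was the lowest in SW480 dnLEF1, at 5.76. Exon length here is the union of all annotated exons, which can exceed the transcript that is used.

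The fold changes of the members in SW480 went with their exon length. Across the 55 members, Pearson's r between log2 fold change and log2 exon length was -0.61 and Spearman's rho -0.59; genes are not independent replicates and share libraries and depth. It was -0.56 within the 27 replication members and -0.66 within the 28 mitosis members, against -0.11 over 13097 genes, where Spearman's rho was -0.23. Of the 27 members longer than the median of 4135 bases, 0 rose and 12 fell in SW480 by edgeR (0 and 14 at an unadjusted p below 0.05), with a median log2 fold change of -0.19. Among the 28 others 7 rose and 6 fell, with a median of 0.07. MKI67, with 12.8 kb of exons, and POLA1, with 15.5 kb, were the longest of the fallers by this measure, and CCNE1 and CDC20 have 2.46 and 2.01 kb. In SW620 r was -0.31 and rho -0.33.

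Libraries differed in the same respect over all genes. The slope of log2 level on log2 exon length, relative to the mean of the line, was -0.08, -0.01, 0.0049 and -0.10 in SW480 dnLEF1 replicates 1 to 4, against 0.06, 0.03, 0.02 and 0.07 in SW480 GFP replicates. The 2 steepest slopes were those of dnLEF1 replicates 1 and 4, the libraries in which MKI67 and CENPF were lowest. With an offset for exon length in each library, 2 replication members rose and 12 fell in SW480, and 4 mitosis members rose and 9 fell. Without it the counts were 2 and 10, and 5 and 8. Among the named members CCNB1 lost its call with the offset, and MCM2, PCNA and CDC25B gained one. The offset follows the trend over all genes, where the log2 fold change had a slope of -0.10 per doubling of length. Across the 55 members the slope was -0.19, so the offset cannot take up all of their trend. The values of MKI67, POLA1, GINS1, CCNE1, CDC20, AURKA, PTTG1 and BIRC5 stayed past the test in all 16 alternative fits, that with the offset included. The part of exon length in the SW480 changes was not tested.

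**Figure D4:**
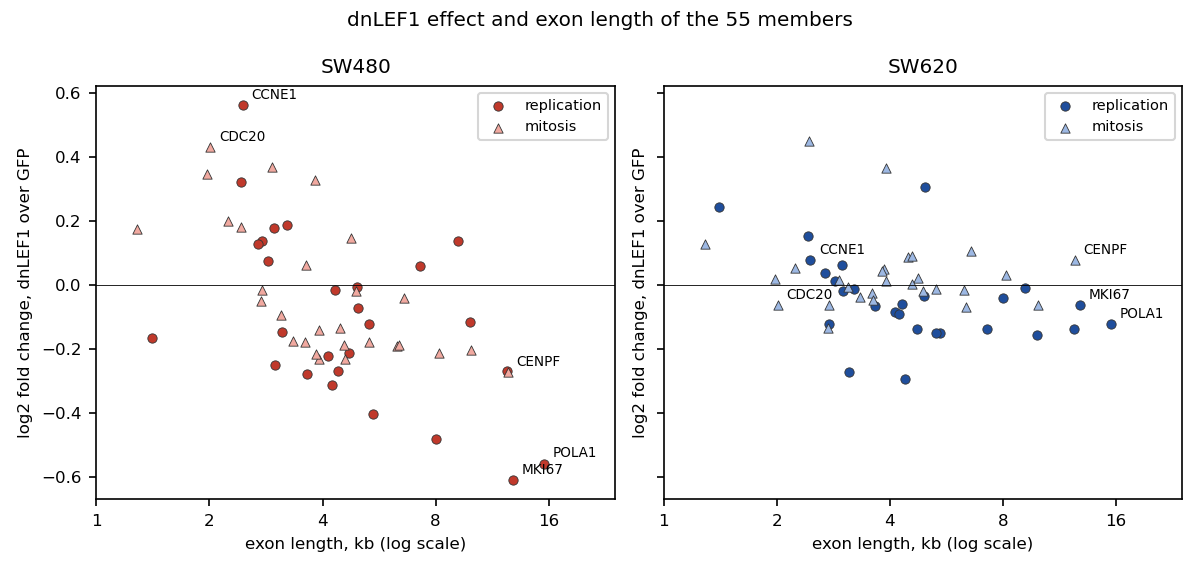
Log2 fold change of dnLEF1 over GFP (y axis) against exon length in kb (x axis, log scale) for the 27 replication members (circles) and 28 mitosis members (triangles), in SW480 (left) and SW620 (right). In SW480 the longest members, among them MKI67, POLA1 and CENPF, lie below 0, and Pearson's r was -0.61 in SW480 and -0.31 in SW620.

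The replication members also varied together among libraries of 1 group. As the median log2 deviation from the GFP mean of the line, SW480 dnLEF1 replicates 1 to 4 had 0.05, -0.14, -0.17 and -0.20, against 0.13, 0.01, -0.01 and -0.11 in SW480 GFP. SW620 dnLEF1 replicates had 0.05, -0.09, -0.09 and -0.18, against 0.12, 0.00081, -0.01 and -0.10 in SW620 GFP. In each of the 4 groups the library numbered 1 was the highest and that numbered 4 the lowest. In SW480 GFP replicate 1, 27 of 27 replication members were above the mean of their group, and in replicate 4, 1 of 27. In SW620 GFP the counts were 24 and 1 of 27. In either line the range within each group was wider than the median log2 fold change of the replication members. For the mitosis members the medians were -0.08, -0.04, -0.05 and -0.17 in SW480 dnLEF1 replicates and 0.06, 0.02, -0.01 and -0.06 in SW480 GFP replicates. The labels give no culture, day or density for the numbers.

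**Figure D5:**
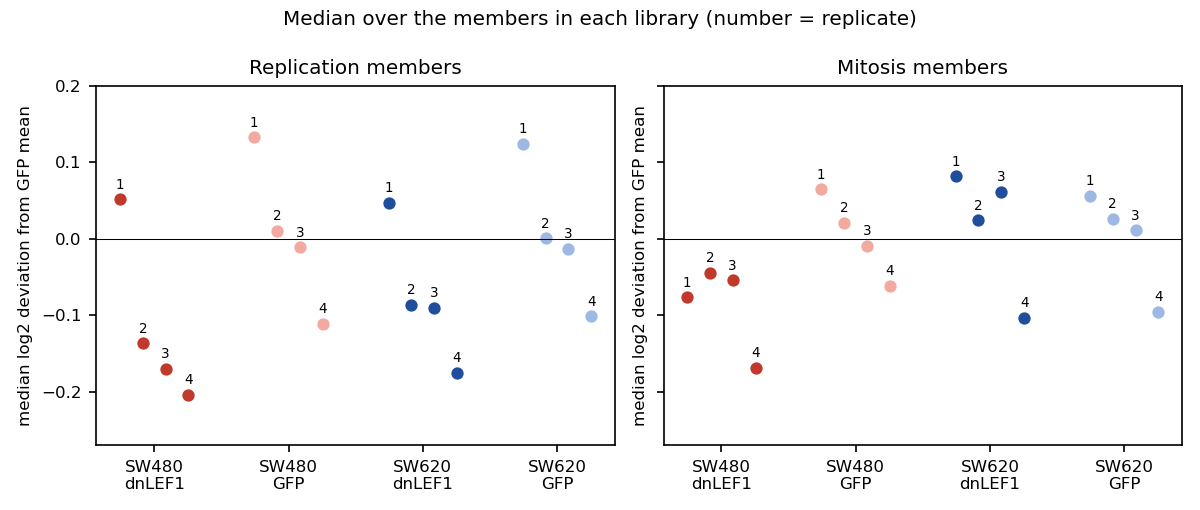
Median over the replication members (left) and the mitosis members (right) of the log2 deviation from the GFP mean of the same line (y axis), 1 point for each library, labelled with its replicate number. For replication members, the library numbered 1 is the highest and that numbered 4 the lowest in each of the 4 groups, from 0.13 to -0.20 overall.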

How the data were processed

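The authors deposited 1 file of raw counts by gene symbol for each of 16 poly(A) RNA libraries. Trimmomatic, TopHat2, HTSeq, DESeq2 and hg38 are named per the submitters' processing notes. Their versions, the annotation and the strand option were not given in the sources used here. The 5 summary lines of each file (20.0% to 50.5% of the total) name no gene and were left out. The members and lists were chosen with earlier results of these data known.

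The test was that of edgeR 4.0.16 under R 4.3.3 (TMM, filterByExpr by group, quasi-likelihood test, Benjamini-Hochberg adjustment over all genes tested, called below 0.05), each comparison on its own 8 libraries and the difference between lines on all 16. Log2 fold changes are given ± the absolute value over the square root of F, and the 95% intervals are a normal approximation from it. CPM use the TMM sizes of all 16 libraries. It was checked on simulated counts.

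Genes named with values are 15 fixed members, PCNA among them, and the called members with the largest changes. Called genes of the other lists are those with the largest changes each way and at least 5 CPM. Other members are named to account for a count. BUB3, TTK, CCNE2, RRM1 and the like were named after their values were seen. Positions and exon lengths are from GENCODE 44, which placed 22923 symbols (86.6%); neighbours needed a mean log2 CPM above 2. Promoters are from RefSeq. The values of 1 gene of the other lists are not reported here.

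Alternatives were DESeq2 1.42.0, limma voom 3.58.1, other scaling factors, no filter, 1 fit of all libraries, each library left out, a block for replicate number and, added after the data were seen, an offset for exon length. Same-numbered libraries deviated together in some pairs only (correlations of -0.22 to 0.52), so the numbers were not taken to pair them. Counting noise alone was exceeded by all pairs of libraries in a group (chi-square per degree of freedom of 2.04 to 23.4). The closest pairs were replicates 2 and 3 of SW480, at 2.04 in GFP and 2.39 in dnLEF1. The other pairs of these groups had 7.12 to 15.3 in GFP and 14.0 to 23.4 in dnLEF1. SW480 p-values may thus rest on fewer than 4 independent libraries per group, which the labels do not settle.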

Additional observations from a re-analysis of the deposited data

Results flagged for a closer look

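Within the groups of 4 libraries, 16 of 224 sets held 1 library far from the other 3 by Dixon's ratio at its 95% critical value, where chance gives about 5%, and 9 of the 16 were high in a library numbered 1. High in SW480 GFP replicate 1 were MCM4 at 523 CPM, MCM10 at 82.9 CPM and ORC6 at 47.2 CPM. High in SW620 dnLEF1 replicate 1 were MCM6 at 282 CPM and ORC6 at 95.4 CPM, and in SW620 GFP replicate 1 MCM6 at 296 CPM, CDC45 at 84.8 CPM and ORC6 at 92.8 CPM. CCNE1 was high in SW480 dnLEF1 replicate 1 at 24.9 CPM. In SW480 dnLEF1 replicate 4, POLA1 was low at 77.8 CPM, PTTG1 high at 211 CPM and LEF1 low at 173 CPM. LEF1 was also low in SW480 GFP replicate 3, at 48.8 CPM. POLD1 was low in SW480 GFP replicate 4 at 108 CPM, and RFC3 and CCNE2 were low in SW620 GFP replicate 4 at 113 and 29.1 CPM.

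The dnLEF1 effect differed between the lines in 13 of 55 members (23.6%) by the test of that difference in edgeR. Over all 14926 genes tested 28.5% passed, so that the members were not called more often than genes at large. The log2 difference, SW620 effect minus SW480 effect, was 0.55 for MKI67, 0.51 for CDC25B, 0.45 for GINS1, 0.44 for POLA1, 0.41 for PCNA, 0.38 for MCM7, 0.35 for CENPF, 0.33 for TTK, 0.27 for CCNB1 and 0.25 for BUB3. It was -0.49 for CDC20, -0.48 for CCNE1 and -0.35 for AURKA.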

How the results depend on the processing

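No called change turned round under any alternative, for the counts and the named members. In SW620 the count of replication members that fell, 1 as reported, was 2 with DESeq2, and the count that rose, 1 as reported, was 2 with no filter on low counts. For the difference between the lines, 4 mitosis members were negative with upper-quartile factors, against 2, and 3 were positive with the offset for exon length, against 5. With 1 library left out, SW480 counts ran from 2 to 4 rises and 8 to 13 falls for replication, and from 4 to 8 rises and 4 to 8 falls for mitosis. In SW620 they ran from 1 to 2 rises and 0 to 2 falls for replication, with 2 rises and 0 falls for mitosis in each. For the difference they ran from 5 to 8 positive and 1 negative for replication, and from 2 to 7 positive and 2 to 4 negative for mitosis. The line comparison kept 12 to 15 rises and 6 to 9 falls for replication, and 8 to 9 rises and 15 falls for mitosis. Apart from the fits that leave out libraries, whose smaller number of samples is by construction, the cause was not tested.

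The replicate numbers do not show that libraries were paired, so the fit with a replicate block is given here alone. In SW620 libraries 1, 3 and 4 deviated most like their own number in the other group (correlations of 0.36 to 0.52) and library 2 did not (-0.07). There the block called 3 replication members higher, MCM7, PCNA and TYMS, and 3 lower; PCNA had 0.24 (edgeR adjusted p = 5.11e-04) and was higher in dnLEF1 in 4 of 4 same-numbered pairs. Over all genes it called 1149 higher and 676 lower, against 804 and 324 without the block. For the difference between the lines 9 replication and 8 mitosis members were positive with the block. Depth ran from 17181204 to 26153506 gene counts, both in SW620 dnLEF1, in replicates 2 and 3, and low members such as CCNE1, at 6.89 to 24.9 CPM, carry the widest counting error.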
